A study of Arabidopsis thaliana with 24 samples.

Results

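The chloroplast genome of Arabidopsis thaliana encodes core subunits of the photosynthetic complexes together with part of the machinery that transcribes and translates them. On the ATH1 array its genes were represented by 69 probe sets annotated to a single plastid gene, 1 probe set for each of 69 genes, out of 22746 probe sets other than controls. Members were single-gene probe sets whose locus tag lies on the plastid chromosome, so annotation and not signal decided which probe sets belong. The rule itself was chosen with earlier results of these data known. All 69 passed the filter on dim probe sets. They fell into 9 functional classes: 15 genes of photosystem II, 7 of photosystem I and its assembly, 6 of the cytochrome b6f complex, 6 of the ATP synthase, 10 of the NAD(P)H dehydrogenase-like (NDH) complex, 4 of the plastid-encoded RNA polymerase, 8 of the small and 7 of the large ribosomal subunit, and 6 other enzymes and factors. Plastid genes without a single-gene probe set were not analysed here; they include genes of the inverted repeat, which are present in more than 1 copy.

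RNA came from the aerial parts of 3-week-old plants grown on agar medium with sucrose, and each of 8 genotypes was measured on 3 arrays. The mutant tt4 carries a mutation in the gene of chalcone synthase (CHS), which makes the precursor of all flavonoids. The lines pap1-D/tt4 and MYB12OX/tt4 are homozygous crosses of tt4 with pap1-D, which overexpresses MYB75/PAP1, an activator of anthocyanin synthesis, and with MYB12OX, which overexpresses MYB12, an activator of flavonol synthesis. WOX1-2 and WOX1-1 are 2 homozygous lines of the cross of MYB12OX with pap1-D, and Col-0 is the wild type and the background that MYB12OX, pap1-D and tt4 share. The labels do not give the promoter behind either regulator, the tt4 allele, or how many plants went into a sample. They describe a drought experiment without tying any array to it. The labels leave it unstated whether replicate arrays stem from different plants, so p-values reflect array-to-array spread, some of which may be technical.

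Plastid genes are mostly transcribed as long polycistronic units, which are then processed into shorter RNAs. A bacterial-type polymerase, whose core subunits are the rpo genes of the plastid and whose promoter recognition depends on nuclear-encoded sigma factors, transcribes most photosynthesis genes, and phage-type polymerases encoded in the nucleus transcribe others, the rpo genes among them. The level of a plastid RNA also depends on the copy number of the plastid genome, on RNA-binding proteins that protect transcript ends, and on decay, in which the addition of an adenine tail marks RNA for degradation. The usual labelling for this array primes on such tails; the labels name only the manufacturer's instructions, and the primer used is not given.

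The signals are MAS5 intensities on a linear scale, scaled by the authors so that every array has the same trimmed mean. A difference is that of log2(signal + 42.6) between genotypes, with the SE of a single limma fit over 14935 probe sets, and a gene is said to have changed where its p-value, adjusted by the Benjamini-Hochberg method over all of them, was under 0.05. Signals of different probe sets depend on their probes and are not compared with each other. In such bulk samples fewer chloroplasts, fewer genome copies and less RNA per copy cannot be told apart. Among nuclear genes of the light-harvesting antenna, LHCB4.1 lay at 22166 to 30143 and LHCB4.2 at 19161 to 27523 over the 24 arrays. LHCB4.3, the third with a single-gene probe set, lay far lower, at 273 to 481. The root-hair gene EXPA7 lay at 2.81 to 54.2. PYK10, a beta-glucosidase abundant in roots, had signals of 1140.0 to 2635.

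The samples are listed genotype by genotype, with Col-0 first and tt4 last, and the first principal component of all tested probe sets (34.5% of the variance) followed this listing, with scores of 19.5 to 22.7 for tt4 and -28.8 to -22.1 for Col-0. No label says what the listing stands for, and genotype and place in it cannot be told apart in full. Replicate 1 of MYB12OX/tt4 had a score of 8.74 against 14.01 and 15.03 for the others of its line. It lay below the highest array with CHS, WOX1-2 replicate 3 at 9.58. Such a gap was not unique to it, since pap1-D replicate 1 had -17.7 against -7.91 and -6.47. Counts and differences of MYB12OX/tt4 are also given without replicate 1 of that line where it moved them. Its plastid signals were high for the line, so leaving it out favours larger falls, and these values are descriptive only.

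Plastid transcripts were lower in the genotypes lacking CHS than in Col-0. In tt4, 42 of the 69 genes fell and none rose (17.2% of all tested probe sets fell), with a median difference of -0.35 over the 69 against 0.01 over all tested probe sets. In pap1-D/tt4, 36 fell (16.7% of all), with a median of -0.31. In MYB12OX/tt4, 24 fell (13.4% of all), with a median of -0.24; without its replicate 1 the count was 33 and the median -0.28. No plastid gene rose in any of the 3 at the authors' scaling; after quantile normalization of the arrays psbK rose in each, by 0.20 in tt4, 0.17 in pap1-D/tt4 and 0.23 in MYB12OX/tt4. For MYB12OX/tt4 the count was 12 without its replicate 2 and 11 without its replicate 3. A fall was also seen in part of the other bright probe sets. Of 246 other probe sets at least as bright as the median plastid one, 41.5% fell in tt4, 36.2% in pap1-D/tt4 and 37.4% in MYB12OX/tt4 (46.7% without its replicate 1). Their median differences were -0.15, -0.12 and -0.15. In MYB12OX/tt4 24 of 69 plastid genes and 92 of these 246 fell, so the plastid share was not above theirs. Without its replicate 1 the shares were 47.8% and 46.7%. The comparisons of the 3 genotypes with Col-0 share the Col-0 arrays.

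The 42 genes that fell in tt4 had 3 tt4 arrays all below the 3 Col-0 arrays, as had 3 more, atpI, psbF and ndhA, which did not pass the test; 22.2% of all tested probe sets had their tt4 arrays below in this way. The differences of the 69 genes ran between -1.18 for ndhE and 0.04 for psbK, and 67 of the 69 were below 0. Summed over genes, the plastid probe sets held 3.20% ± 0.195 of the array's total signal in tt4, 3.23% ± 0.0939 in pap1-D/tt4 and 3.41% ± 0.255 in MYB12OX/tt4, against 3.84% ± 0.0456 in Col-0 (SD, n = 3 each). Without its replicate 1, at 3.71%, the share in MYB12OX/tt4 was 3.26% ± 0.0233 (SD, n = 2). The means of the other 4 genotypes lay at 3.73% to 3.76%.

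**Figure D1:**
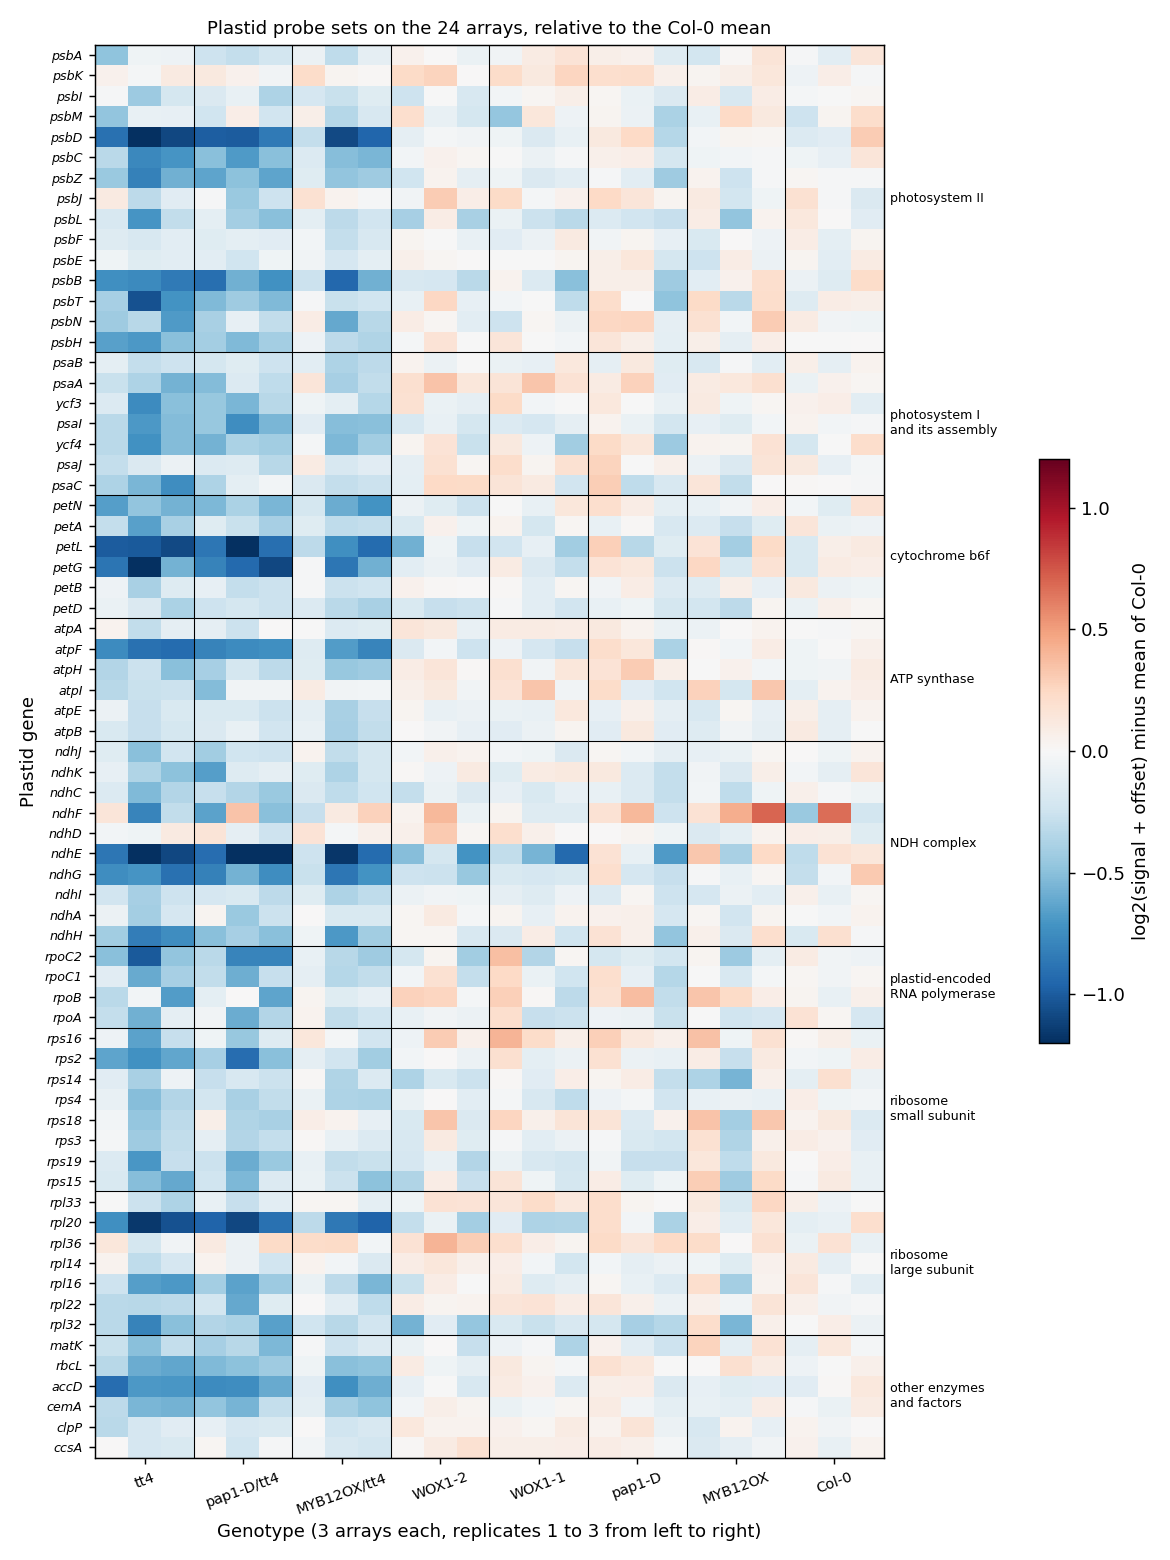
Colour shows log2(signal + offset) of each of the 69 plastid probe sets (rows, grouped by functional class) on each of the 24 arrays (columns, 3 per genotype), minus the mean of the 3 Col-0 arrays. Most rows are blue in tt4, in pap1-D/tt4 and on replicates 2 and 3 of MYB12OX/tt4, with ndhE, psbD, petL and rpl20 the darkest, while psbK and ndhD stay pale in every column.

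Photosystem II, which splits water and passes electrons to plastoquinone, showed a wide spread among its 15 genes. In tt4, 8 fell, with a class median of -0.40; in pap1-D/tt4 6 fell and in MYB12OX/tt4 5 fell, or 7 without its replicate 1. The gene with the largest difference was psbD, which encodes D2, one of the reaction centre proteins. Its signals were 2858, 2115 and 2476 in tt4, 2663, 2654 and 2948 in pap1-D/tt4 and 4384, 2506 and 2749 in MYB12OX/tt4, against 4748, 4857 and 6598 in Col-0. Where CHS was intact, they were 4949, 5253 and 5173 in WOX1-2, 5139, 4729.9 and 5031 in WOX1-1, 5797, 6322 and 4203 in pap1-D and 5205, 5446 and 5438 in MYB12OX. Thus psbD was at 46.0% of its Col-0 mean in tt4, a difference of -1.102 ± 0.16 (SE; adjusted p = 1.46e-05), and of the 9 arrays lacking CHS replicate 1 of MYB12OX/tt4 alone reached the range of the other genotypes. The 2 genes next to psbD on the chromosome moved with it: psbC, which encodes the antenna protein CP43, had 12898, 9423 and 9909 in tt4, against 15603, 15136 and 17907 in Col-0 (-0.60 ± 0.11, SE), and psbZ, a small subunit at the antenna interface, had 13811, 10700.2 and 12628 in tt4, against 19216, 18679 and 18677 in Col-0 (-0.61 ± 0.11).

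The other antenna protein, CP47, is encoded by psbB. Its signals were 2377, 2325 and 2196 in tt4, 2099, 2655 and 2393 in pap1-D/tt4 and 3313, 2047 and 2645 in MYB12OX/tt4, against 3788, 3573 and 4642 in Col-0. They were 3474, 3445 and 3171 in WOX1-2, 4097, 3542 and 2788 in WOX1-1, 4170.3, 4171 and 2956 in pap1-D and 3639, 4129 and 4577 in MYB12OX, so that pap1-D replicate 3 and WOX1-1 replicate 3 were the lowest of the arrays with CHS. The difference of tt4 was -0.78 ± 0.16 (SE; adjusted p = 0.000455). The small subunits psbT and psbH follow psbB in its unit: psbT had 1642, 1036 and 1309 in tt4, against 1950.0, 2325 and 2288 in Col-0 (-0.72 ± 0.17), and psbH, a phosphoprotein, had 3976, 3871 and 4409.8 in tt4, against 6263, 6252 and 6279 in Col-0 (-0.61 ± 0.08). Between them on the opposite strand lies psbN, an assembly factor, with 1480.1, 1584 and 1233 in tt4, against 2153, 1941 and 1928 in Col-0 (-0.48 ± 0.14). The small subunit psbL fell as well, with 4074, 2850.3 and 3805 in tt4, against 5111, 4695 and 4258 in Col-0 (-0.40 ± 0.15 SE, adjusted p = 0.0387), although its tt4 arrays spread widely. Leaving out 1 array lost the call of psbL without Col-0 replicate 1 or 2 or tt4 replicate 2 (adjusted p up to 0.237) and of psbN without tt4 replicate 3 (adjusted p = 0.0630). After quantile normalization psbL gave -0.36 (adjusted p = 0.0607).

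The remaining 7 genes of photosystem II did not pass the test in tt4. They include psbA, which encodes the rapidly turned over D1 protein, with 6902, 9312 and 9220.4 in tt4, against 9525, 8793 and 10668 in Col-0 and a difference of -0.20 (adjusted p = 0.157). The genes of cytochrome b559, psbE and psbF, differed by -0.11 (adjusted p = 0.347) and -0.16 (adjusted p = 0.0987), and the small subunits psbI, psbJ and psbM by -0.22, -0.11 and -0.22. The only member of the class above 0 was psbK, a small subunit, at 16667, 15886 and 17344 in tt4, against 15445, 17046 and 15922 in Col-0, with a difference of 0.0438 (adjusted p = 0.677), or of 0.20 (adjusted p = 0.0203) after quantile normalization. Over all 24 arrays psbK kept within 15445 to 19377, and its tt4 arrays overlapped those of Col-0.

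Photosystem I, which reduces ferredoxin, had 6 of 7 genes that fell in tt4, 4 in pap1-D/tt4 and 2 in MYB12OX/tt4 (4 without its replicate 1), with a median of -0.47 in tt4. The reaction centre proteins are encoded by psaA and psaB. psaA had 2203, 2053 and 1781 in tt4, against 2525, 2768 and 2705 in Col-0 (-0.40 ± 0.12 SE, adjusted p = 0.0112), and psaB, downstream of it in the same unit, had 24983, 22332 and 22910.4 in tt4, against 28482, 25193 and 28006 in Col-0 (-0.22 ± 0.08 SE, adjusted p = 0.0391). Of the smaller subunits, psaC, which carries the terminal iron-sulfur clusters, had 403, 352 and 301 in tt4, against 538, 536 and 526 in Col-0 (-0.55 ± 0.15 SE, adjusted p = 0.00460), and psaI had 7674, 5970.0 and 6701 in tt4, against 9923, 9431 and 9524 in Col-0 (-0.51 ± 0.10 SE, adjusted p = 0.000273). Both assembly factors fell: ycf3 had 4848, 3198 and 3838 in tt4, against 5622, 5759 and 4962 in Col-0 (-0.47 ± 0.12), and ycf4 had 1861, 1391 and 1613 in tt4, against 2013, 2328 and 2716 in Col-0 (-0.52 ± 0.17). In tt4 the gene psaJ, a small subunit, differed by -0.17 (adjusted p = 0.181); against its own parent line it fell in pap1-D/tt4, with 9854, 9883 and 8730.0 in pap1-D/tt4 against 13283, 11004 and 11540.1 in pap1-D (adjusted p = 0.0233). Leaving out 1 array lost the call of psaA without tt4 replicate 3 (adjusted p = 0.0715), of psaB without Col-0 replicate 1 or 3 or tt4 replicate 2 or 3 (adjusted p up to 0.136) and of ycf4 without Col-0 replicate 3 or tt4 replicate 2 (adjusted p up to 0.0884) in tt4, and of psaJ without pap1-D replicate 1 or pap1-D/tt4 replicate 3 (adjusted p up to 0.143) in that pair. After quantile normalization psaB differed by -0.047 (adjusted p = 0.356), and psaJ in the pap1-D pair by -0.27 (adjusted p = 0.0511).

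The cytochrome b6f complex carries electrons between the photosystems, and 4 of its 6 genes fell in each of the 3 genotypes lacking CHS, or 5 in MYB12OX/tt4 without its replicate 1. The 3 small subunits petL, petG and petN fell in tt4, and likewise in pap1-D/tt4 and MYB12OX/tt4, comparisons that share the Col-0 arrays. For petL the signals were 1483, 1472 and 1399 in tt4, 1627, 1293 and 1587 in pap1-D/tt4 and 2419, 1794 and 1571 in MYB12OX/tt4, against 2656, 3164 and 3249 in Col-0. With CHS present, they were 2001, 2895 and 2481 in WOX1-2, 2554, 2813 and 2249 in WOX1-1, 3669.8, 2385 and 2712 in pap1-D and 3369, 2254 and 3547 in MYB12OX. This is 48.0% of the Col-0 mean in tt4, a difference of -1.03 ± 0.17 (SE; adjusted p = 7.53e-05). Its neighbour petG had 812, 609 and 1015 in tt4, 859, 781 and 693 in pap1-D/tt4 and 1513, 817 and 1014 in MYB12OX/tt4, against 1341, 1645 and 1621 in Col-0, with a difference of -0.91 ± 0.18 (SE; adjusted p = 0.000421) in tt4, and here replicate 1 of MYB12OX/tt4 lay among the Col-0 values. petN, which lies elsewhere on the chromosome, had 269, 311 and 289 in tt4, against 438, 404 and 512 in Col-0 (-0.57 ± 0.11 SE, adjusted p = 0.000436). Of the large subunits, petA, which encodes cytochrome f, fell in tt4 with 12248, 9492 and 11349.9 in tt4, against 16461, 14090.2 and 14306 in Col-0 (-0.44 ± 0.10 SE, adjusted p = 0.000917). The genes of cytochrome b6 and of subunit IV, petB and petD, differed by -0.20 (adjusted p = 0.0827) and -0.21 (adjusted p = 0.103) in tt4 and did not pass the test there, although petD did in MYB12OX/tt4.

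Of the 6 ATP synthase genes, 3 fell in tt4, 3 in pap1-D/tt4 and 4 in MYB12OX/tt4, with or without its replicate 1. The largest difference was in atpF, the b subunit of the membrane part CF0. Its signals were 2719, 2463 and 2424 in tt4, 2638, 2725 and 2757 in pap1-D/tt4 and 4154, 2884 and 2653 in MYB12OX/tt4, against 4452, 4624 and 4816 in Col-0. In the overexpressors with CHS they were 4104, 4522 and 3884 in WOX1-2, 4442, 4028 and 3819 in WOX1-1, 5369.7, 5104 and 3546 in pap1-D and 4680.2, 4525 and 4928 in MYB12OX. The level in tt4 was 54.8% of the Col-0 mean (-0.86 ± 0.13 SE, adjusted p = 2.43e-05). The ring subunit gene atpH had 3301, 3508 and 2960.3 in tt4, 3179.6, 3630.1 and 3381 in pap1-D/tt4 and 3796, 3062 and 3116 in MYB12OX/tt4, against 4067, 4084 and 4499 in Col-0, and 4469.9, 4660.4 and 4242 in WOX1-2, 4823, 4078 and 4619 in WOX1-1, 4711, 5215 and 4413 in pap1-D and 4188, 4359 and 4129 in MYB12OX in the lines with CHS. It was the single plastid gene with all 9 arrays lacking CHS below all 15 others, a pattern seen in 0.703% of all tested probe sets, and its difference in tt4 was -0.37 ± 0.09 (SE; adjusted p = 0.00172). Without replicate 1 of MYB12OX/tt4, 18 plastid genes had the 8 remaining arrays below the 15. They were atpF, atpH, petN, psbD, psbC, psbZ, psaA, rbcL, accD, psaI, cemA, petL, petG, rpl20, psbB, psbH, rpl22 and ndhG. That array lay above the others of its line in 65 plastid genes, so leaving it out favours a higher count here. The share was 2.02% over all tested probe sets, which is therefore no fair background, and the count is descriptive only. For the beta subunit gene atpB the change was small, with 28694, 26898 and 28089 in tt4, against 35109.9, 30171 and 32378 in Col-0 (-0.22 ± 0.08 SE, adjusted p = 0.0338), and after quantile normalization its difference was 0.00803 (adjusted p = 0.891). The call was lost for atpB without Col-0 replicate 1 or 3 or tt4 replicate 2 or 3 (adjusted p up to 0.164). The alpha and epsilon subunit genes atpA and atpE and the a subunit gene atpI differed by -0.12, -0.18 and -0.28 in tt4 and did not pass the test there, and atpE fell in the other 2 genotypes lacking CHS.

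**Figure D2:**
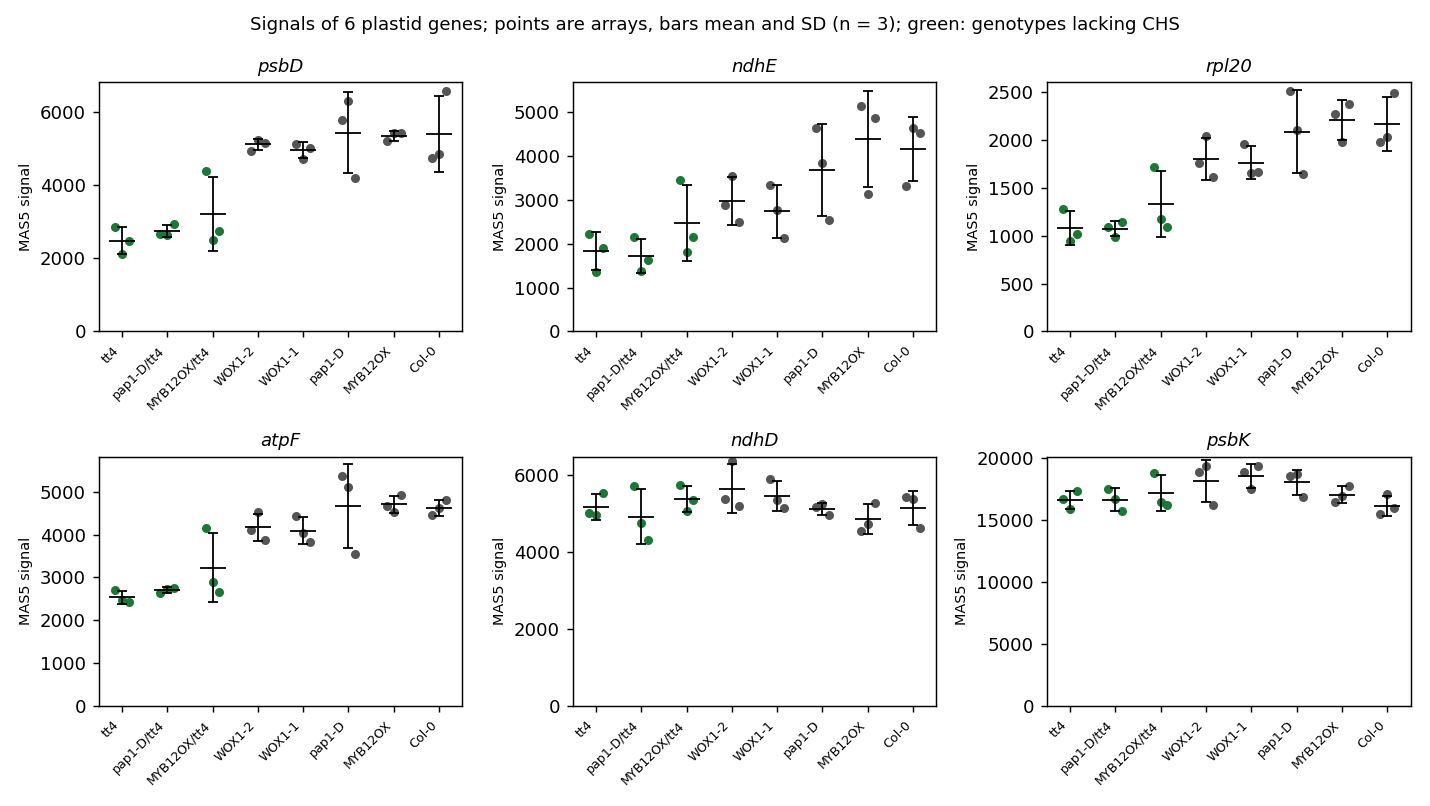
MAS5 signals (vertical axes, linear and starting at 0) of psbD, ndhE, rpl20, atpF, ndhD and psbK in the 8 genotypes. Points are the 3 arrays of a genotype in replicate order, bars are the mean and SD, and green marks genotypes lacking CHS. The first 4 genes are low in tt4 and pap1-D/tt4 and on replicates 2 and 3 of MYB12OX/tt4, whereas ndhD and psbK are not.

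The NDH complex, which returns electrons to plastoquinone in cyclic electron flow, held the gene with the largest difference, ndhE, and ndhD, which hardly differed. In tt4, 6 of 10 fell, as did 6 in pap1-D/tt4 and 4 in MYB12OX/tt4 (6 without its replicate 1). The small membrane subunit gene ndhE had 2227, 1364 and 1897 in tt4, 2153, 1387 and 1626 in pap1-D/tt4 and 3457, 1808 and 2145 in MYB12OX/tt4, against 3304, 4639 and 4509.7 in Col-0. In the lines with CHS its signals were 2875, 3547 and 2483 in WOX1-2, 3331, 2768 and 2124 in WOX1-1, 4624, 3846 and 2542 in pap1-D and 5131, 3128 and 4868 in MYB12OX. Here the third arrays of WOX1-2, WOX1-1 and pap1-D came down to 2124 to 2542, within the range of the arrays lacking CHS, so the gene varied within lines as well. It stood at 44.1% of the Col-0 mean in tt4 (-1.18 ± 0.25 SE, adjusted p = 0.000910).

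The neighbours of ndhE in its transcription unit differed unevenly, with psaC next to it at -0.55 in tt4. ndhG, also a membrane subunit, had 627, 646 and 560.5 in tt4, against 882, 1056 and 1357 in Col-0 (-0.78 ± 0.14), ndhI, an iron-sulfur subunit, had 23094, 20544 and 22834 in tt4, against 28328, 25529 and 27634 in Col-0 (-0.29 ± 0.07, but -0.0979 with adjusted p = 0.0792 after quantile normalization), and ndhH, at the start of the unit, had 453, 329.7 and 352 in tt4, against 543, 713 and 616 in Col-0 (-0.67 ± 0.16). The intron-containing ndhA between them differed by -0.23 (adjusted p = 0.0965) and did not pass the test. At the far end of the unit, next to psaC, ndhD had 5006, 4950.4 and 5542 in tt4, 5702, 4741 and 4304 in pap1-D/tt4 and 5738, 5054 and 5353 in MYB12OX/tt4, against 5419, 5371 and 4625 in Col-0. Its lines with CHS had 5364, 6364 and 5201 in WOX1-2, 5889, 5356 and 5138 in WOX1-1, 5157, 5241 and 4946 in pap1-D and 4542, 4712 and 5282 in MYB12OX, all in the same range, and the difference in tt4 was 0.00961 ± 0.10 (SE; adjusted p = 0.950). Within 1 unit the differences in tt4 thus spanned -1.18 to 0.01. The translation of ndhD depends on RNA editing that creates its start codon, a step the array does not measure.

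Of the second NDH unit, ndhC had 12503, 9712 and 11004 in tt4, against 14655, 13931 and 13587 in Col-0 (-0.35 ± 0.09) and ndhJ had 9692, 7567 and 9160.1 in tt4, against 10737, 10348 and 11068 in Col-0 (-0.29 ± 0.09), and ndhK between them differed by -0.32 (adjusted p = 0.0604). The call was lost for ndhJ without tt4 replicate 2 (adjusted p = 0.0976). ndhF was the most variable plastid gene, with 109, 36.7 and 68.6 in tt4, against 57.7, 175 and 74.7 in Col-0; its difference of -0.31 ± 0.28 (SE; adjusted p = 0.406) had the largest SE of the 69.

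Of the 4 genes of the plastid-encoded polymerase, 2 fell in tt4, 2 in pap1-D/tt4 and none in MYB12OX/tt4, with or without its replicate 1. rpoC2, with the largest difference of the class, had 1102, 763 and 1128 in tt4, 1258, 893 and 892 in pap1-D/tt4 and 1484, 1250.0 and 1167 in MYB12OX/tt4, against 1694, 1536 and 1517 in Col-0. Where CHS was intact, the signals were 1364, 1618 and 1172 in WOX1-2, 2039, 1233 and 1610.1 in WOX1-1, 1362, 1426 and 1347 in pap1-D and 1620.4, 1158 and 1451 in MYB12OX. The tt4 difference was -0.66 ± 0.17 (SE; adjusted p = 0.00374), at 63.0% of the Col-0 mean. rpoC1 had 4448, 3215 and 3714 in tt4, against 4978, 4758 and 4964 in Col-0 (-0.38 ± 0.14 SE, adjusted p = 0.0391), and leaving out 1 array lost the call of rpoC1 without Col-0 replicate 1, 2 or 3 or tt4 replicate 2 or 3 (adjusted p up to 0.194), as did quantile normalization (-0.33, adjusted p = 0.0597). rpoB, the first gene of this unit, and rpoA, at the end of the ribosomal protein unit, differed by -0.34 (adjusted p = 0.177) and -0.32 (adjusted p = 0.0803). The rpoB probe set was dim, with 86.3, 75.8 and 89.2 in Col-0 and 58.4, 81.1 and 36.7 in tt4, near the filter of 85.2. None of the 4 was called higher in a genotype lacking CHS, and 4 genes are too few to set against all probe sets.

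The ribosomal protein genes behaved unevenly. In the small subunit, 4 of 8 fell in tt4, 3 in pap1-D/tt4 and 1 in MYB12OX/tt4. rps2, the first gene of the unit that also carries atpI, atpH, atpF and atpA, had 3220.4, 3008 and 3236 in tt4, 3798, 2643 and 3536 in pap1-D/tt4 and 4647, 4262 and 3753 in MYB12OX/tt4, against 4884, 4832 and 5328 in Col-0. Its signals in the lines with CHS were 4886, 5032 and 4755 in WOX1-2, 5719, 4615 and 4756 in WOX1-1, 5687, 4771 and 4705 in pap1-D and 5334, 4142 and 5392 in MYB12OX, and the tt4 difference was -0.66 ± 0.12 (SE; adjusted p = 0.000145). rps4 had 12466, 9339 and 10419 in tt4, against 14080.1, 12828 and 13038 in Col-0 (-0.32 ± 0.09). rps19 had 10412, 7204 and 9655 in tt4, against 11761, 12382 and 10964 in Col-0 (-0.38 ± 0.12) and rps15 had 478, 372 and 343 in tt4, against 541, 593 and 510.4 in Col-0 (-0.43 ± 0.17 SE, adjusted p = 0.0437). Calls were lost for rps4 without Col-0 replicate 1 or tt4 replicate 2 (adjusted p up to 0.0876), rps19 without Col-0 replicate 1 or 2 or tt4 replicate 2 (adjusted p up to 0.173) and rps15 without Col-0 replicate 1, 2 or 3, WOX1-1 replicate 2, MYB12OX/tt4 replicate 2 or tt4 replicate 2 or 3 (adjusted p up to 0.169). Quantile normalization gave -0.17 for rps4 (adjusted p = 0.0780) and -0.28 for rps19 (adjusted p = 0.0590), so both calls were lost. rps3, rps14, rps16 and rps18 differed by -0.25, -0.20, -0.32 and -0.27 and did not pass the test.

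In the large subunit, 4 of 7 fell in tt4, 4 in pap1-D/tt4 and 1 in MYB12OX/tt4 (2 without its replicate 1), and rpl20 fell most. It had 1276, 943 and 1019.9 in tt4, 1085, 987 and 1142 in pap1-D/tt4 and 1719.8, 1171 and 1089 in MYB12OX/tt4, against 1981, 2027 and 2491 in Col-0. With CHS present, it had 1756, 2037 and 1609 in WOX1-2, 1961, 1653 and 1668 in WOX1-1, 2508, 2107 and 1642 in pap1-D and 2274, 1976 and 2377 in MYB12OX, above all arrays lacking CHS but for replicate 1 of MYB12OX/tt4. The level in tt4 was 49.8% of the Col-0 mean (-0.98 ± 0.15 SE, adjusted p = 3.36e-05). rpl16 had 10271, 7694 and 7545 in tt4, against 13432, 12057 and 11155 in Col-0 (-0.53 ± 0.14), rpl22 had 7877, 7808 and 7911 in tt4, against 10253, 9549 and 9776 in Col-0 (-0.32 ± 0.09) and rpl32 had 8818, 6321 and 7795 in tt4, against 10982, 11617 and 10506 in Col-0 (-0.54 ± 0.14). rpl14, rpl33 and rpl36 differed by -0.15, -0.21 and -0.0385 and did not pass the test in tt4.

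Among the other enzymes and factors, 5 of 6 fell in tt4, 4 in pap1-D/tt4 and 3 in MYB12OX/tt4 (4 without its replicate 1). rbcL encodes the large subunit of Rubisco, the carbon-fixing enzyme, and its signals were 5083, 4213 and 4148 in tt4, 4424, 4542 and 4750.4 in pap1-D/tt4 and 6167, 4516 and 4563 in MYB12OX/tt4, against 6149, 6389.8 and 6678 in Col-0. In the overexpressors with CHS they were 6846, 6163 and 5957 in WOX1-2, 6967, 6543 and 6290.3 in WOX1-1, 7269, 7008 and 6378 in pap1-D and 6427, 7325 and 6847 in MYB12OX. The rbcL probe set was therefore at 70.0% of the Col-0 mean in tt4 (-0.52 ± 0.10 SE, adjusted p = 0.000244), with no overlap between these 2 genotypes. accD, the carboxyltransferase subunit of the plastid acetyl-CoA carboxylase and so a gene of fatty acid synthesis rather than photosynthesis, had 1889.7, 2211 and 2197 in tt4, 2113, 2128 and 2338 in pap1-D/tt4 and 3258, 2143 and 2369 in MYB12OX/tt4, against 3262, 3615 and 3916 in Col-0. In the lines with CHS it had 3348, 3570.3 and 3125 in WOX1-2, 3851, 3711 and 3202 in WOX1-1, 3767, 3787 and 3185 in pap1-D and 3338, 3241 and 3262 in MYB12OX, and its tt4 difference was -0.76 ± 0.11 (SE; adjusted p = 1.58e-05). cemA, an inner envelope protein gene, had 7465, 6353 and 6266 in tt4, against 9208, 8789 and 9929 in Col-0 (-0.48 ± 0.09), matK, an intron maturase gene, had 9307, 7935 and 9198 in tt4, against 10438, 12269.8 and 11028 in Col-0 (-0.35 ± 0.11 SE, adjusted p = 0.0153), and clpP, a subunit gene of the stromal Clp protease, had 11273, 12226 and 12832 in tt4, against 14494, 13656 and 14098 in Col-0 (-0.22 ± 0.07 SE, adjusted p = 0.0204). ccsA, which acts in cytochrome c assembly, differed by -0.13 (adjusted p = 0.193) and did not pass the test. Leaving out 1 array lost the call of matK without Col-0 replicate 2 or tt4 replicate 2 (adjusted p up to 0.0864) and of clpP without Col-0 replicate 1 or tt4 replicate 1 (adjusted p up to 0.104). Neither passed after quantile normalization, with -0.27 for matK (adjusted p = 0.0505) and -0.0899 for clpP (adjusted p = 0.266).

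Read along the chromosome, the fall in tt4 followed some transcription units and split others. All 5 genes of accD, psaI, ycf4, cemA and petA fell, with differences of -0.76 to -0.44, and so did all 3 of psbD, psbC and psbZ, with -1.102 to -0.60. Elsewhere genes of 1 unit separated. In the unit of petL, petG, psaJ, rpl33 and rps18 the first 2 fell and the other 3 did not pass the test, with -0.91 for petG and -0.17 for psaJ next to it. In rps2, atpI, atpH, atpF and atpA the values ran between -0.86 for atpF and -0.12 for atpA, its neighbour downstream. In psbB, psbT, psbH, petB and petD the first 3 fell and the last 2 did not pass the test, and in psbE, psbF, psbL and psbJ only psbL passed it. Of the 7 measured genes of the large ribosomal protein unit 3 fell. The difference between neighbours was not tested.

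**Figure D3:**
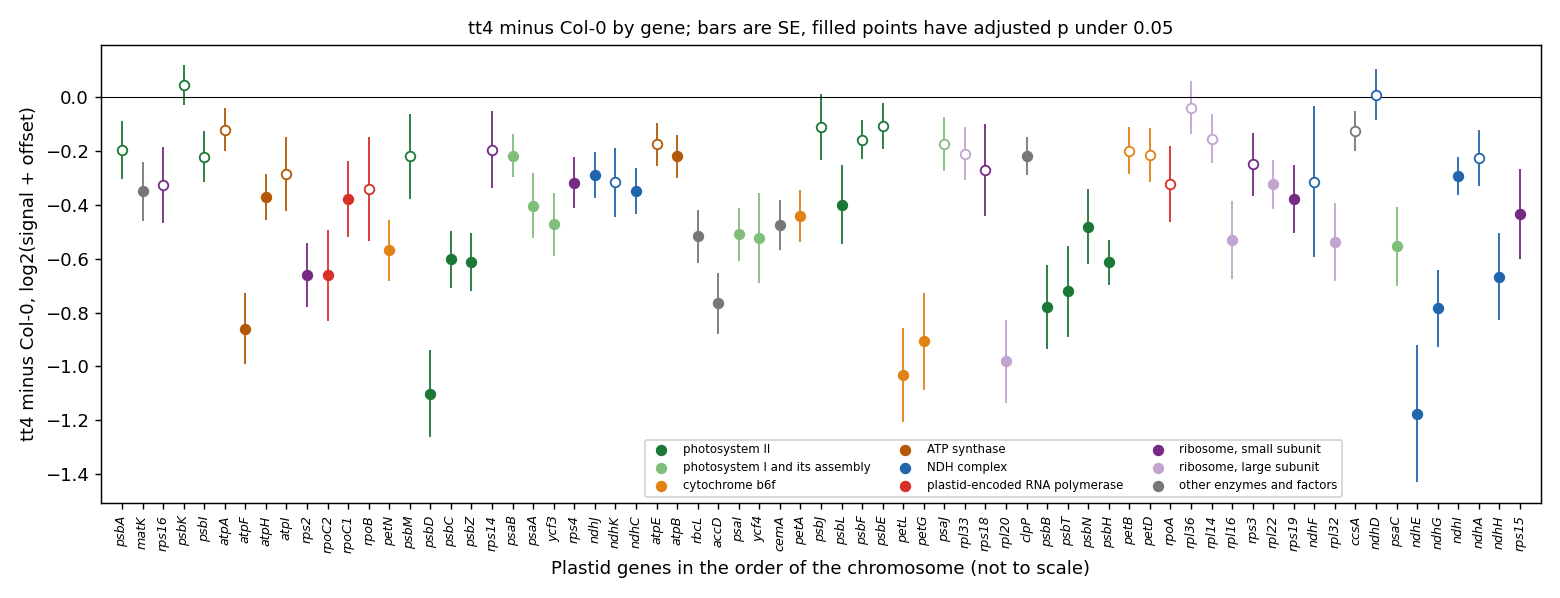
Difference of tt4 minus Col-0 in log2(signal + offset) (vertical axis) for the 69 plastid genes in chromosome order (horizontal axis, evenly spaced), coloured by functional class. Bars are the SE of the limma fit and filled points have an adjusted p under 0.05. Runs of filled points lie at psbD to psbZ, rbcL to petA and psbB to psbH, and ndhE and psbD are lowest at -1.18 and -1.102.

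The fall was not evenly spread over signal levels. Of 30 genes with a mean signal under 5000, 22 fell in tt4, with a median difference of -0.54; of 30 between 5000 and 15000, 16 fell, with a median of -0.30; of 9 at or above 15000, 4 fell, with a median of -0.22. Spearman's rho between mean signal and difference was 0.490 across the 69 genes, which share arrays and transcription units, and no test was made. The part of signal level in the differences between genes and classes was not tested.

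Each cross with tt4 was also set against its own parent line, which gives a comparison on arrays that do not include Col-0. In pap1-D/tt4 against pap1-D, 26 genes fell and none rose (8.84% of all tested probe sets fell), with a median of -0.27 over the 69 and 0.04 over all. In MYB12OX/tt4 against MYB12OX, 17 fell and none rose (8.23% of all fell), with a median of -0.19 and 0.02 over all; without replicate 1 of MYB12OX/tt4 the count was 24 and the median -0.25, without its replicate 2 or 3 the count was 6 or 8, and without replicate 1 or 3 of MYB12OX it was 9. Among other bright probe sets 23.2% and 13.4% fell in these 2 comparisons, the second being 29.3% without replicate 1 of MYB12OX/tt4. They share no array. Of the genes that fell, 16 were common to both, which is 94.1% of the 17 and 61.5% of the 26; the exception among the 17 was psbN, with 2134, 1297 and 1578 in MYB12OX/tt4 against 2274, 1965 and 2479 in MYB12OX. Without replicate 1 of MYB12OX/tt4, 19 were common, which is 79.2% of 24 and 67.9% of 28. The same overlap was not computed over all tested probe sets, so it cannot be read as particular to plastid genes. For psbD the difference was -0.95 ± 0.16 (SE; adjusted p = 0.000294) in the pap1-D pair and -0.78 ± 0.16 (SE; adjusted p = 0.00186) in the MYB12OX pair. For ndhE it was -1.05 ± 0.25 (SE; adjusted p = 0.00542) and -0.84 ± 0.25 (SE; adjusted p = 0.0255). Without replicate 1 of MYB12OX/tt4 the MYB12OX pair gave -1.02 ± 0.14 for psbD and -1.102 ± 0.26 for ndhE (SE). By class, the pap1-D pair had 6 photosystem II, 4 photosystem I, 3 cytochrome b6f, 2 ATP synthase, 3 NDH, 1 small and 3 large ribosomal subunit genes and 4 of the other class that fell, and no polymerase gene. psbJ, which did not pass the test in tt4 against Col-0, fell there, with 11397, 8429 and 9657 in pap1-D/tt4 against 13622, 12752 and 11739 in pap1-D (adjusted p = 0.0338). Leaving out 1 array lost the call of psbJ without pap1-D replicate 1 or 2 or pap1-D/tt4 replicate 2 or 3 (adjusted p up to 0.178) and, in the MYB12OX pair, of ndhE without MYB12OX replicate 1 or 3 or MYB12OX/tt4 replicate 2 or 3 (adjusted p up to 0.142). After quantile normalization psbJ gave -0.29 (adjusted p = 0.0840) in the pap1-D pair.

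Almost no plastid gene passed the test in the overexpressors with CHS. In MYB12OX against Col-0 limma called 0 of 69 and 0 had an unadjusted p under 0.05 (1% of all tested probe sets changed). In pap1-D it called 0, with 4 under an unadjusted 0.05 (10.1% of all changed), and in WOX1-1 it called 0, with 2 under it (16.8% of all changed); quantile normalization gave 0, 0 and 1 for the 3 lines. In WOX1-2 it called 1 of 69, with 6 under an unadjusted 0.05, whereas 23.1% of all tested probe sets changed. The 1 gene was rpl36, a protein gene of the large ribosomal subunit, which was higher in WOX1-2: its signals were 10319, 12121 and 11203 in WOX1-2, against 8644, 10297 and 8570.3 in Col-0, with all WOX1-2 arrays above those of Col-0 though the closest are nearly equal, and the difference was 0.29 ± 0.10 (SE; adjusted p = 0.0342). That call was lost under quantile normalization, where rpl32 was called in its place as lower in WOX1-2 (-0.41, adjusted p = 0.0373), and without the filter. It was also lost for rpl36 without Col-0 replicate 1 or 3 or WOX1-2 replicate 2 or 3 (adjusted p up to 0.143). Between WOX1-2 and WOX1-1 limma called 0 plastid genes, with 0 under an unadjusted 0.05 (0% of all tested probe sets changed).

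In the tt4 background the regulators were likewise without a called plastid gene. MYB12OX/tt4 against tt4 gave 0 of 69, with 12 under an unadjusted p of 0.05 (0.187% of all changed) and a median of 0.17, and 0 with a median of 0.06 without its replicate 1; a fit with replicate number as a block gave 1. pap1-D/tt4 against tt4 gave 0, with 1 under an unadjusted 0.05 (0.147% of all changed). The interaction, which tests whether a regulator's effect differs with and without CHS, gave 0 for MYB12OX, with 7 under an unadjusted 0.05 (0.268% of all changed), and 0 for pap1-D, with 1 under it (1.17% of all changed). A single F-test for any difference among the 8 genotypes was passed by 41 of the 69 (37.7% of all tested probe sets and 52% of the other bright ones passed): all 7 genes of photosystem I and all 6 other enzymes and factors, but 7 of 15 of photosystem II, 6 of 10 of NDH, 5 of 7 and 3 of 8 of the large and small ribosomal subunits, 4 of 6 of cytochrome b6f, 2 of 6 of the ATP synthase and 1 of 4 polymerase genes.

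Array by array, the fall did not follow the genotypes in full. The median of the 69 genes relative to the Col-0 mean was -0.27, -0.50 and -0.37 on the 3 tt4 arrays, -0.28, -0.36 and -0.32 on those of pap1-D/tt4, and -0.07, -0.31 and -0.28 on those of MYB12OX/tt4. On the 15 arrays with CHS it lay between -0.19 and 0.09. In its plastid genes replicate 1 of MYB12OX/tt4 was thus on the side of the lines with CHS. It lay above its other 2 replicates in 65 of 69 genes and within the range of the 15 arrays in 68, against 29 and 32 genes for replicates 2 and 3. In 2 genes picked for separating the genotypes lacking CHS it lay outside that range. AT3G23550 had 1390 on it, against at most 953 with CHS, and AT1G13650 had 125, against at least 158. Both genes were picked from these same arrays, so their values are descriptive and no test of the array's genotype. In the listing this array holds place 16, and the 8 low arrays are places 17 to 24.

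This split into 8 and 16 arrays was read from the plastid medians themselves, so it is no separate test. The medians of the other bright probe sets were -0.21 to -0.10 on these 8 arrays and -0.09 to 0.05 on the first 16. Their ranges nearly met, with -0.0982 on tt4 replicate 1 and -0.0944 on MYB12OX replicate 1. The untrimmed mean signal was 688.8 to 706.0 on the 8 and 703.9 to 725.9 on the 16. After quantile normalization, which removes such differences in the distribution of signals, 33 plastid genes fell and 1 rose in tt4 against Col-0. The median was -0.28, with 60 of 69 below 0. The median of the other bright probe sets was -0.007, and 51 of those 246 fell. In pap1-D/tt4 31 plastid genes fell and 1 rose (median -0.26), where 33.6% of all tested probe sets changed in either direction. In MYB12OX/tt4 16 fell and 1 rose (median -0.14), where 27.2% of all changed. At the authors' scaling that line had 24 and a median of -0.24. With place in the listing as a covariate limma called 0 plastid genes in tt4 against Col-0, with 7 under an unadjusted 0.05, where 0.562% of all tested probe sets were called, and the median difference was 0.47 with a median SE of 0.687; this fit draws the covariate from differences within genotypes alone. Whether the fall belongs to the loss of CHS or to whatever the listing stands for cannot be told apart.

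**Figure D4:**
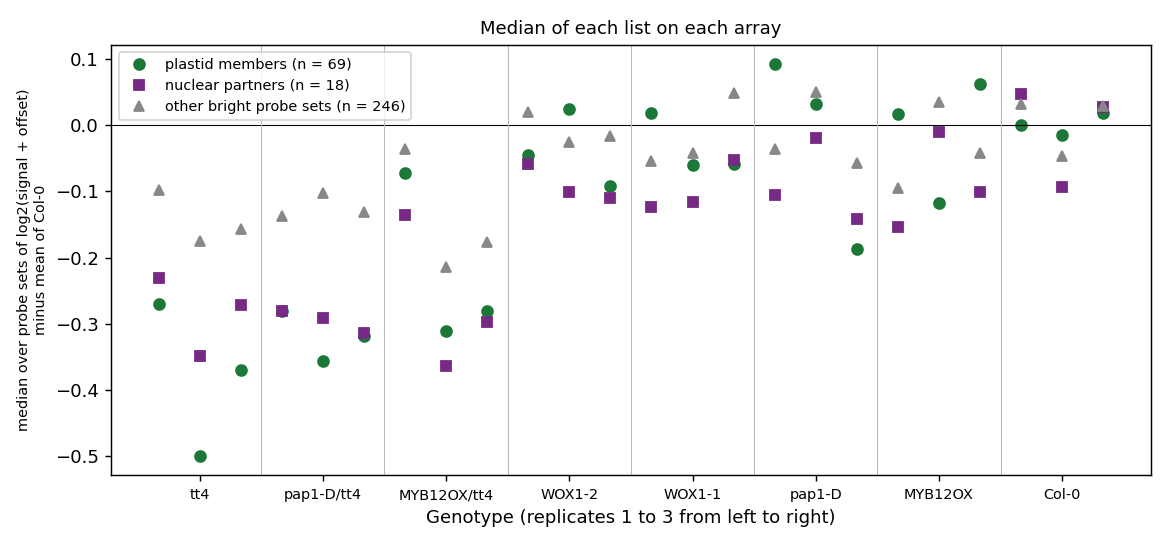
Median over the 69 plastid genes (circles), 18 nuclear partner genes (squares) and 246 other bright probe sets (triangles) of log2(signal + offset) minus the Col-0 mean, on each of the 24 arrays. Plastid medians are -0.27 to -0.50 on the arrays of tt4, pap1-D/tt4 and replicates 2 and 3 of MYB12OX/tt4, and -0.19 to 0.09 on the others, MYB12OX/tt4 replicate 1 included.

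Many nuclear genes whose products work with plastid-encoded ones were lower in the same genotypes, and some in lines with CHS. Of 107 such genes listed, 18 had a single-gene probe set. In tt4, 13 of them fell and none rose (median -0.30), and 12 fell in pap1-D/tt4 and 11 in MYB12OX/tt4 (13 without its replicate 1). Over all tested probe sets 17.2%, 16.7% and 13.4% fell in these genotypes, in that order. Among the other bright probe sets 41.5%, 36.2% and 37.4% fell. Partner genes also fell in lines with CHS: WOX1-2 had 5 of 18 that fell, pap1-D had 2 and WOX1-1 had 1, while limma called 0 in MYB12OX, with 1 under an unadjusted 0.05. In the fit without replicate 1 of MYB12OX/tt4 the partner counts were 6, 2 and 1, or 33.3%, 11.1% and 5.56%. There 12.1%, 5.06% and 8.98% of all tested probe sets fell, so the WOX1-1 count was below that share. All 6 nuclear genes for the NDH complex fell in tt4, led by CRR21 at -0.83 ± 0.09 (SE; adjusted p = 4.43e-07) and CRR28 at -0.63 ± 0.14 (SE; adjusted p = 0.00109), which encode pentatricopeptide repeat proteins needed for editing of NDH transcripts, ndhD among them. In WOX1-2, where CHS was intact, CRR28 gave -0.70 ± 0.14 (SE; adjusted p = 0.000710), CRR21 -0.65 ± 0.09 (SE; adjusted p = 2.12e-05) and NDHS -0.53 ± 0.14 (SE; adjusted p = 0.00560), so falls of these genes were not limited to the genotypes lacking CHS. In photosystem II, PSBY changed by -0.41 ± 0.08 (SE; adjusted p = 0.000217) and PSBW by -0.29 ± 0.07 (SE; adjusted p = 0.00152). In photosystem I the values were -0.27 ± 0.08 (SE; adjusted p = 0.00780) for PSAN and -0.20 ± 0.09 (SE; adjusted p = 0.0822) for PSAE-1. The antenna genes LHCB4.3 and LHCB4.2 gave -0.38 ± 0.10 (SE; adjusted p = 0.00574) and -0.32 ± 0.08 (SE; adjusted p = 0.00220), while the third, LHCB4.1, did not pass the test at -0.19 ± 0.08 (SE; adjusted p = 0.0551). The gamma subunit genes ATPC1 and ATPC2 of the ATP synthase gave -0.31 ± 0.08 (SE; adjusted p = 0.00367) and -0.22 ± 0.12 (SE; adjusted p = 0.181). RCA, Rubisco activase, changed by -0.23 ± 0.08 (SE; adjusted p = 0.0248), and PETM of the cytochrome b6f complex gave -0.15 ± 0.09 (SE; adjusted p = 0.172). RPOTmp, a phage-type polymerase directed to both organelles, was the single partner above 0, at 0.40 ± 0.28 (SE; adjusted p = 0.282). After quantile normalization 8 of the 18 fell in tt4. There 35.9% of all tested probe sets changed, a share that counts both directions and so is no like background for falls.

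The mitochondrial genome, the other organelle genome on the array, had 18 single-gene probe sets, of which 10 passed the filter. In tt4, 1 of these fell and none rose, a probe set of nad1 at -0.49 ± 0.15 (SE; adjusted p = 0.0121), and all 10 were below 0 with a median of -0.30. The next largest was another nad1 probe set at -0.44 ± 0.19 (adjusted p = 0.0799). In pap1-D/tt4 and MYB12OX/tt4 the medians were -0.20 and -0.18, and limma called 0 of the 10 in each. Of all tested probe sets 17.2% fell in tt4, 16.7% in pap1-D/tt4 and 13.4% in MYB12OX/tt4. Mitochondrial probe sets were dimmer and had a median SE of 0.14, against 0.11 for the plastid ones.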

How the data were processed

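RNA from 24 samples was hybridized to ATH1 arrays, 3 per genotype, as the titles in the labels give them. The deposited values are linear signal intensities per probe set, which the authors computed with MAS5, per the submitters' processing notes. From the values themselves, the mean after trimming 2% at each end was 500.0 on every array. The number of arrays limits the precision. From these intensities log2(signal + 42.6) was computed, the offset being the overall median signal divided by 4, which understates changes of dim probe sets. A probe set was tested if at least 3 arrays exceeded 85.2, the median divided by 2, and 7811 of 22746 fell below. One mean per genotype was fitted in R 4.3.3 by limma 3.58.1, with a variance trend and 16 residual degrees of freedom, two-sided, with Benjamini-Hochberg adjustment over all 14935 probe sets of each of 14 contrasts and of 1 F-test; an adjusted p under 0.05 counts as a call.

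Gene names came from the platform annotation, updated through RefSeq (TAIR10.1), used for names and gene order only; the build behind the array design is not given, so no coordinates are printed. Of the 22746 probe sets 13513 had 1 gene, 503 several and 8730 none. Mitochondrial genes were matched by symbol. The members, functional classes, partner lists and rule for naming genes were chosen with earlier results of these data known. The rule names every member; genes that passed in at least 1 comparison have array values, in full for those with the largest differences, for tt4 and Col-0 (or the pair concerned) for the others, and in the heat map for all. Signals of no 2 arrays were identical. Same-numbered arrays were not taken as pairs, since the labels tie them to nothing shared and their correlations did not all exceed 0.1. Alternatives were an offset of 10.7, no filter, quantile normalization, replicate number as a block, place in the listing as a covariate, and leaving out each array.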

Additional observations from a re-analysis of the deposited data

How the results depend on the processing

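Counts of plastid genes called kept within 1.5 times of those reported with the smaller offset in all comparisons. Without the filter WOX1-2 against Col-0 gave 0 and MYB12OX/tt4 against MYB12OX 11. Quantile normalization gave 1 (psbK) in WOX1-1 against Col-0, atpB in tt4 turned to 0.00803 (adjusted p = 0.891), and 33 of the 42 genes kept their call in tt4; the 9 others have their values given above beside each gene. With a replicate block, WOX1-2 against Col-0 gave 2, MYB12OX/tt4 against tt4 gave 1 (psbH, higher in MYB12OX/tt4), and tt4 against Col-0 gave 44; no call reported for a named gene was lost with the block. Deviations of same-numbered arrays from their genotype means had a mean correlation of 0.0952 (84 pairs, 36 above 0.1, range -0.136 to 0.560) and those of differently numbered ones of -0.0467 (168 pairs, 24 above 0.1); 15 of 24 arrays correlated best with their own number, a hint of shared deviations from the data and not from the design. With place in the listing as a covariate the counts were 0 in each of the 14 comparisons and 2 in the F-test. Leaving out 1 array moved the counts over 0 to 1 (WOX1-1), 0 to 2 (WOX1-2), 11 to 33 (MYB12OX/tt4), 29 to 37 (pap1-D/tt4) and 32 to 49 (tt4) against Col-0, 6 to 24 (MYB12OX/tt4 against MYB12OX), 18 to 32 (pap1-D/tt4 against pap1-D) and 32 to 45 (F-test), and stayed at 0 in the other 7.

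The covariate fit turned the sign of 35 of the 42 differences of tt4 against Col-0, with SEs of 0.460 to 1.49 and a lowest adjusted p of 0.217; the cause was not tested beyond the fit's construction, which leaves only differences within genotypes to estimate the covariate. The values were 1.12 (matK), 1.03 (atpF), 0.23 (atpH), 0.43 (rps2), 1.504 (rpoC2), 1.90 (rpoC1), 0.38 (psbC), 0.53 (psbZ), 0.0147 (psaB), 0.41 (psaA), 1.503 (ycf3), 1.32 (rps4), 0.47 (ndhC), 0.20 (atpB), 0.72 (rbcL), 0.64 (psaI), 1.302 (ycf4), 0.46 (petA), 1.24 (psbL), 0.62 (petG), 0.91 (rpl20), 0.0398 (clpP), 0.27 (psbB), 0.99 (psbT), 0.86 (psbN), 0.12 (psbH), 1.46 (rpl16), 0.35 (rpl22), 1.07 (rps19), 0.41 (rpl32), 0.53 (psaC), 2.28 (ndhE), 0.0585 (ndhI), 1.06 (ndhH), 1.32 (rps15). Against the parent line the values were 1.14 for ndhE in MYB12OX/tt4, 0.72 for psbJ in pap1-D/tt4, 0.92 for ndhE in pap1-D/tt4.

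The number of arrays sets the limit, with a median SE of 0.11 on the log2 scale for the plastid genes. The array has no detection calls, plastid probe sets span signals from dim to near the top of the scale, and neither saturation nor the labelling primer can be examined from the deposited values.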
